A study of Mus musculus with 36 samples.

Results

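The subject is the kidney of mice after 3 days without food, set against the kidney of mice that kept free access to chow. The 9 arrays were picked from the 36 of the study by their labels alone: the 4 arrays labelled as 3 days of fasting, and the 5 arrays of chow controls whose animal numbers belong to the same cohort. All 45141 probe sets of the table were analysed. The study asked how the renal transcriptome responds to short diets of different composition given before surgery, and the fasted mice with their controls formed a cohort of their own, hybridized and normalized apart from the other diets. Both groups were male C57BL/6 mice of 10 to 12 weeks and 20 to 25 g that had been acclimatised for 7 days on the SDS chow, a standard laboratory diet. The 3-day fasting group (n = 4) then had no food, and the SDS group (n = 5) went on with chow. Whole kidney was taken directly after the diet, before any surgery, and each array holds RNA of 1 mouse. The authors left an outlying array out of the fasting group. Within each group the mice are numbered in the order of deposition, which carries no meaning and pairs no mice.

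The signals are RMA values on the log2 scale, so that a difference of 1 is a doubling. The median signal of an array lay between 4.15 and 4.21, and arrays correlated at 0.994 to 0.996 within the fasting group, at 0.995 to 0.997 within the SDS group and at 0.986 to 0.990 between the groups. The 3′ minus 5′ signal of the Gapdh control probe sets, a measure of RNA integrity, was 0.93 ± 0.09 (SD, n = 4) after fasting and 0.88 ± 0.23 in SDS mice (n = 5), and the groups did not differ beyond their spread (exact permutation test, 2-sided, p = 0.714). Markers of kidney segments were at high signals in all 9 arrays. For 12 proximal tubule genes, for example, the mean was 11.2 to 11.3 in fasted mice and 11.2 to 11.5 in SDS mice. The mean of 8 genes of the adjacent adrenal cortex was 4.23 to 4.31 in fasted mice and 4.26 to 4.33 in SDS mice. Among these 8, Fdx1 was bright (10.76 after fasting and 10.78 in SDS mice), and the others had group means of 4.73 or lower. Whole kidney was measured, so fewer cells of a type and less RNA per cell cannot be told apart in any result that follows.

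Fasting moves the body from glucose to fat as its main fuel. Fatty acids released by adipose tissue are ligands of the nuclear receptor PPARA, which switches on the enzymes that burn them, while low insulin releases FOXO transcription factors and rising glucocorticoids act through their own receptor. A lack of amino acids is read by the transcription factor ATF4, and sterol and lipid synthesis is set by the SREBP factors. The kidney is among the organs that make glucose in fasting, and it excretes the nitrogen and acid that the breakdown of amino acids leaves.

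A probe set counted as differentially expressed (DEPS) when its false discovery rate, computed over the 45141 probe sets together, was under 5% and its fold change reached 1.5. The adjusted p-values are those of limma with Benjamini-Hochberg adjustment, and they measure the spread between individual mice. After 3-day fasting, 2398 probe sets were DEPS (5.31%), of which 1186 were higher (2.63%) and 1212 lower (2.68%) than in SDS mice. In 2236 of them the 4 fasted mice all lay above or all below the 5 SDS mice, which was the case for 17.2% of all probe sets, and in the other 162 the groups overlapped. Changes of at least 2-fold were as frequent upward as downward, with 307 probe sets higher and 299 lower, and 34 rose and 25 fell at least 4-fold. The DEPS with a single gene symbol stood for 1381 genes, 615 higher, 771 lower, and 5 with DEPS in both directions, which are counted in both. Over the brightest probe set of each of 17097 genes, which serves for every gene list below, 1106 genes (6.47%) were called, 502 (2.94%) higher and 604 (3.53%) lower, with a median log2 fold change of −0.01.

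**Figure D1:**
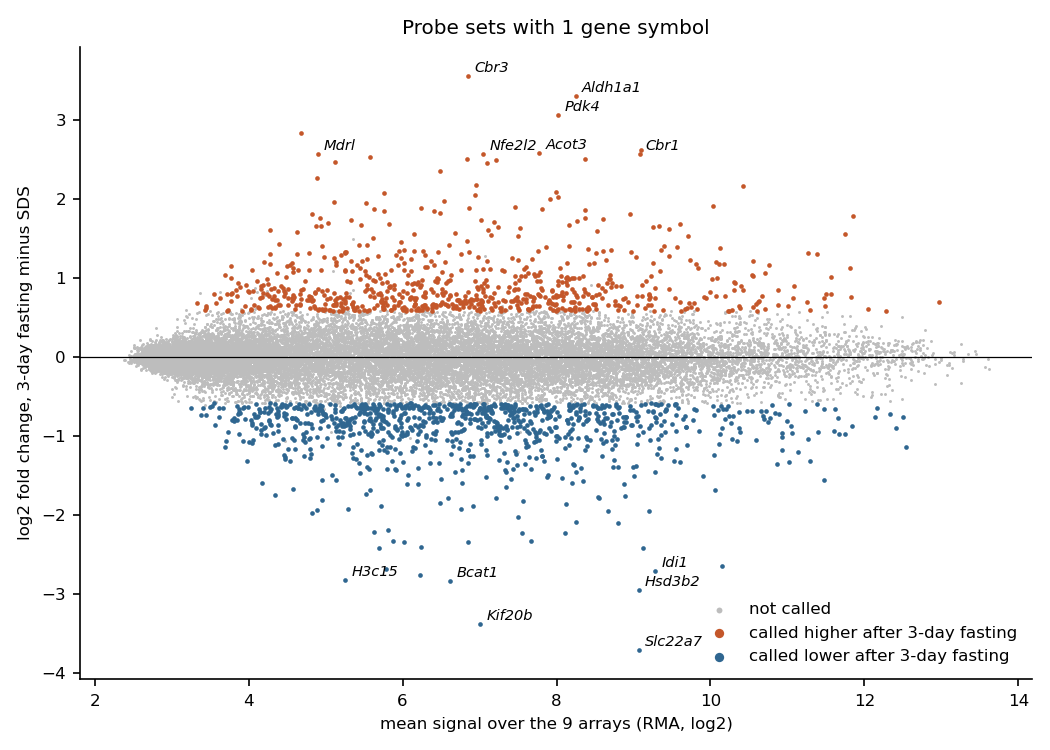
Log2 fold change (3-day fasting minus SDS) of every probe set with 1 gene symbol on the y axis against its mean log2 signal over the 9 arrays on the x axis. Orange points are DEPS higher after fasting, blue points are DEPS lower after fasting and grey points were not called; the extremes are Cbr3 at 3.57 and Slc22a7 at −3.71.

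The largest named increase belonged to Cbr3, a cytosolic carbonyl reductase. Cbr3 signals were 8.92, 8.91, 8.62 and 8.88 in the fasted mice, against 5.03, 5.47, 5.23, 5.02 and 5.59 in the SDS mice. Every fasted mouse thus stood more than 3 log2 units above every SDS mouse, and the change was 11.8-fold (log2 3.57 ± 0.12 SE, adjusted p = 4.18e-08). Its genomic neighbour Cbr1, which reduces quinones and prostaglandins, had 10.61, 10.53, 10.30 and 10.58 after fasting, against 8.04, 7.77, 8.02, 7.71 and 8.13 in SDS mice, and rose 5.95-fold. Aldh1a1, which makes retinoic acid from retinal and clears aldehydes, had 10.08, 9.99, 10.13 and 10.14 in fasted mice, against 6.73, 6.50, 6.88, 6.78 and 6.99 in SDS mice. The fasted mice had an SD of 0.07, and Aldh1a1 rose 9.90-fold (adjusted p = 5.82e-09). The adjacent paralog Aldh1a7 rose 6.17-fold, although probes of such close relatives may bind transcripts of both. Cyp2d22, a cytochrome of drug metabolism, had 8.54, 8.59, 8.56 and 8.73 in fasted mice, against 6.10, 6.16, 6.06, 6.12 and 6.10 in SDS mice. Both groups were tight, and its adjusted p of 1.43e-09 belonged to a 5.66-fold rise. The other named genes of large rise included Slc25a25, a mitochondrial carrier of ATP-Mg and phosphate (log2 fold change 2.51), Maob, which oxidises monoamines (2.36), the mitochondrial reductase Mtarc1 (2.27), the retinal transcription factor Atoh7 (2.48) and the long non-coding RNA Mdrl (2.57). In each of these 5 the groups were apart.

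The 3 probe sets with the largest increases of all, at log2 fold changes of 5.23, 4.86 and 4.84, carry no symbol in the annotation used here. The same holds for probe sets at −2.50 and −2.45, and none of these 5 is discussed further.

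The largest decrease was that of Slc22a7, which carries organic anions across tubule cells. Its signals were 6.78, 7.47, 7.02 and 6.74 in fasted mice, against 10.57, 10.78, 10.64, 10.97 and 10.62 in SDS mice. The highest fasted mouse lay more than 3 log2 units below the lowest SDS mouse, a 13.1-fold fall (log2 −3.71 ± 0.14 SE, adjusted p = 8.28e-08). Kif20b, a kinesin of late cell division, had 4.78, 4.84, 5.68 and 5.22 in fasted mice, against 8.57, 8.98, 7.87, 8.88 and 8.24 in SDS mice, and fell 10.4-fold. Hsd3b2, a steroid dehydrogenase, had 7.08, 7.71, 7.60 and 7.32 after fasting, against 10.13, 10.53, 10.59, 9.92 and 10.70 in SDS mice. Its log2 fold change was −2.95, with no overlap between the groups. Bcat1, the cytosolic enzyme that takes the amino group from branched-chain amino acids, had 5.08, 5.48, 4.95 and 4.66 in fasted mice, against 7.99, 8.50, 7.32, 8.27 and 7.33 in SDS mice. Mfsd2a, a lysolipid transporter that takes up docosahexaenoic acid, had 4.26, 4.63, 5.21 and 4.67 in fasted mice, against 8.13, 7.87, 6.68, 7.89 and 6.67 in SDS mice. Both fell, Bcat1 7.15-fold and Mfsd2a 6.76-fold. For Kif20b, Bcat1 and Mfsd2a alike, SDS mice 3 and 5 were the lowest of the SDS group. Among the remaining large falls were Slc9a8, a sodium-proton exchanger (−2.68), Rnf183, a ubiquitin ligase (−2.42), the endosomal tether Vps8 (−2.40), the meiotic factor Hsf2bp (−2.34) and the synaptic vesicle gene Syn3 (−2.32).

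**Figure D2:**
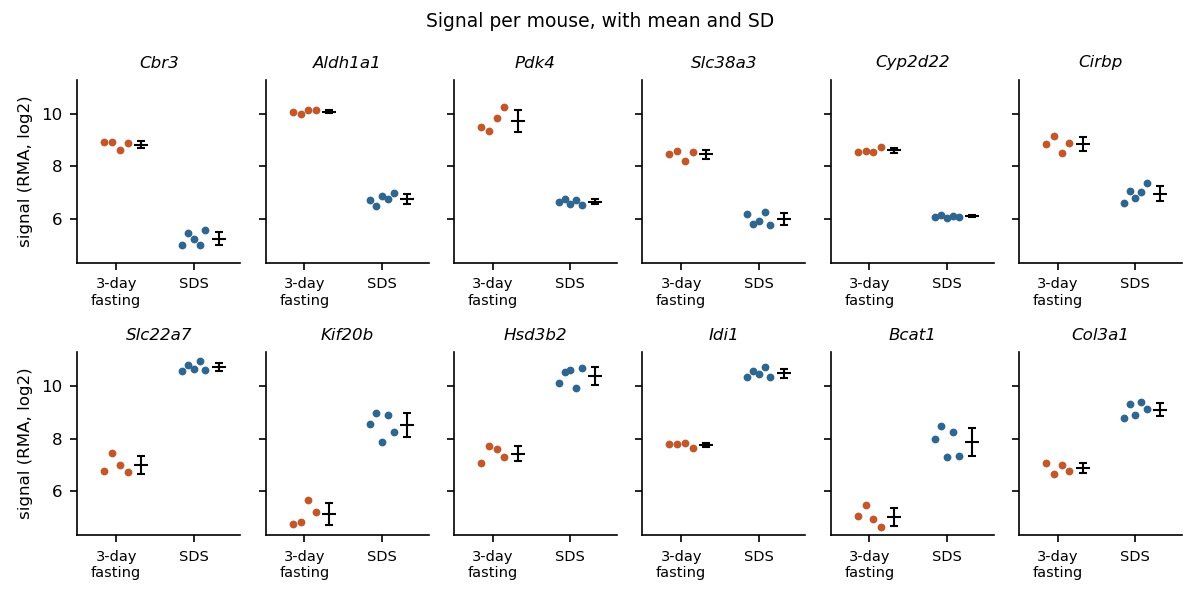
RMA signal on the log2 scale (y axis) of 12 genes with large changes, with 1 point per mouse, the 3-day fasting group (orange, n = 4) on the left and the SDS group (blue, n = 5) on the right of each panel; black marks show mean and SD, and Idi1 is shown by its dimmer probe set, which had the lower p. In all 12 genes the fasted mice lie wholly above or wholly below the SDS mice, from Cbr3 (mean 8.83 after fasting and 5.27 in SDS) to Col3a1 (6.88 after fasting and 9.11 in SDS).

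Carbonyl reductases and several glutathione enzymes belong to the target genes of NRF2, the factor that answers electrophiles and oxidants and is encoded by Nfe2l2. Of 28 measured genes of a list of Nfe2l2 and its targets, 12 were called higher, 0 lower and 16 did not pass, and the median log2 fold change was 0.46. Beside Cbr3 and Cbr1, the quinone reductase Nqo1 had 10.30, 10.75, 10.52 and 10.59 in fasted mice, against 8.80, 8.67, 8.97, 8.91 and 8.91 in SDS mice, and rose 3.22-fold. The efflux pump Abcc4 had 9.48, 9.59, 9.06 and 9.28 in fasted mice, against 7.71, 7.49, 7.72, 7.50 and 7.53 in SDS mice, a 3.40-fold rise. Both genes separated the groups by more than 1 log2 unit. Gsta2, a glutathione transferase, rose 2.95-fold and the biliverdin reductase Blvrb 2.38-fold. Smaller rises were those of Gsta4 (1.82-fold), Gstm1 (1.64-fold), the epoxide hydrolase Ephx1 (1.62-fold) and the sulfiredoxin Srxn1 (1.61-fold). Aox1, an aldehyde oxidase, was uneven among fasted mice, with 6.25, 5.46, 5.76 and 4.53, against 3.81, 3.90, 4.06, 3.89 and 3.93 in SDS mice. Outside the list, the microsomal glutathione transferases Mgst1 and Mgst3 rose 2.47-fold and 1.81-fold. Of 20 other antioxidant enzymes, 2 were called higher, the metallothionein Mt1 (1.63-fold) and the glutaredoxin Glrx (1.73-fold), and 18 did not pass.

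The gene of NRF2 itself gave 2 different answers. The brightest probe set of Nfe2l2 had 9.62, 9.54, 9.77 and 9.73 in fasted mice, against 9.59, 9.50, 9.52, 9.52 and 9.52 in SDS mice, and was not called (log2 fold change 0.14, adjusted p = 0.154). Another probe set annotated to Nfe2l2 had 8.61, 8.64, 8.25 and 8.41 in fasted mice, against 5.68, 5.78, 5.91, 6.20 and 5.96 in SDS mice. That probe set rose by 2.57 on the log2 scale with wide separation of the groups, so no single value describes this gene.

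The window from 250 bases before to 50 bases after a gene's start was searched on both strands for the antioxidant response element (TGACNNNGC), in sequences of RefSeq for GRCm38.p6. It was found in 12.4% of all 32851 windows, and in 3 of 14 windows (21.4%) of the called NRF2 list members, which belonged to 2 of 11 genes with a window, Abcc4 and Srxn1. Members of the list that were not called held it in 5 of 20 windows (25.0%). Over all genes with a window, 3.05% were called higher, and of 2178 genes with the element 3.49% were. The upstream 250 bases of the Abcc4 start are shown because Abcc4 is the gene of largest change among the 2. The capitals mark the element, which lies on the opposite strand, and the stretch is chr14:118706220-118706469 on the minus strand:
Abcc4: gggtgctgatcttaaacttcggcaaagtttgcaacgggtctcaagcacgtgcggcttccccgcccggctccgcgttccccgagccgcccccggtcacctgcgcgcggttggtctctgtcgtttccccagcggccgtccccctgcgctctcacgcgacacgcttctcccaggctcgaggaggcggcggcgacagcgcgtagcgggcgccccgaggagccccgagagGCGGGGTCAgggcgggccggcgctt
A match is a match of letters only, and no binding was measured in these mice.

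Genes of fatty acid oxidation were called higher far more often than lower. Of 16 measured mitochondrial members, 7 were called higher, 0 lower and 9 did not pass, with a median log2 fold change of 0.53. Acaa2, the thiolase that ends each turn of the spiral, had 11.18, 11.44, 11.14 and 11.19 in fasted mice, against 10.06, 9.97, 10.11, 9.65 and 10.27 in SDS mice, and rose 2.34-fold. The carnitine carrier Slc25a20 had 10.86, 10.82, 10.71 and 10.92 in fasted mice, against 9.52, 9.66, 9.56, 9.86 and 9.64 in SDS mice, and rose 2.26-fold. In both genes each fasted mouse lay above each SDS mouse. Eci1 and Eci2, which shift double bonds of unsaturated chains, rose 2.25-fold and 1.71-fold, the reductase Decr1 of the same task 1.69-fold, and the inner transferase Cpt2 1.71-fold. The liver form of the entry enzyme, Cpt1a, had a log2 fold change of 0.49 (adjusted p = 0.00205), under the fold change minimum, whereas its muscle form Cpt1b rose 1.66-fold. Acadm, the medium-chain dehydrogenase, lay among the brightest genes of the kidney and differed by −0.01 only (adjusted p = 0.913).

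Of 15 peroxisomal members, 6 were called higher, 2 lower and 7 did not pass, with a median of 0.33. The count of higher members was 4 to 6 on leaving out single arrays. The dienoyl reductase Decr2 rose 2.35-fold, the thiolases Acaa1a and Acaa1b 1.75-fold and 1.70-fold, and Pex11a, which drives the division of peroxisomes, 1.73-fold. The 2 that fell handle branched or trans-unsaturated chains. Amacr, the racemase of branched-chain fatty acids, had 10.26, 10.13, 10.17 and 9.90 in fasted mice, against 11.41, 11.52, 11.49, 11.44 and 11.47 in SDS mice, and fell 2.56-fold. Pecr, the trans-enoyl reductase, fell 1.57-fold.

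The acyl-CoA thioesterases, which free fatty acids from coenzyme A, moved in opposite directions. Of 11 measured, 5 rose, 1 fell and 5 did not pass. Acot3 had 9.25, 9.46, 8.95 and 9.19 in fasted mice, against 6.58, 6.23, 6.93, 6.46 and 6.91 in SDS mice, and rose 6.02-fold. Its neighbours Acot2 and Acot1 rose 3.13-fold and 2.90-fold, and these paralogs may share probes. Acot12 rose 2.00-fold and Acot8 1.72-fold. Acot11 went the other way, with 6.43, 6.74, 6.33 and 6.00 in fasted mice, against 8.37, 8.35, 8.68, 8.04 and 8.53 in SDS mice, a 4.05-fold fall with no overlap.

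Of 17 other PPARA targets, 11 were called higher, 0 lower and 6 did not pass, and their median log2 fold change of 1.01 was the highest of the 53 lists. Pdk4, the kinase that closes pyruvate dehydrogenase to glucose carbon, had 9.50, 9.33, 9.83 and 10.25 in fasted mice, against 6.65, 6.77, 6.60, 6.74 and 6.54 in SDS mice, and rose 8.40-fold. Plin5, which coats lipid droplets next to mitochondria, had 7.87, 7.60, 7.50 and 7.60 in fasted mice, against 5.72, 5.71, 5.47, 5.99 and 5.42 in SDS mice, and rose 3.95-fold. Both genes kept the groups apart by more than 1 log2 unit. The fatty acid hydroxylases Cyp4a10 and Cyp4a31, which are close paralogs, rose 3.46-fold and 3.33-fold. The lipase inhibitor Angptl4 rose 3.36-fold, the pantetheinase Vnn1 2.51-fold, the arrestin Txnip 2.10-fold, the droplet protein Plin2 1.93-fold, the glycerol phosphate dehydrogenase Gpd1 1.79-fold and the lipase Mgll 1.73-fold. The receptor's own gene Ppara had 8.68, 9.04, 8.88 and 8.81 in fasted mice, against 7.66, 7.98, 7.83, 7.81 and 7.93 in SDS mice. Its 3 probe sets gave log2 fold changes of 0.91 to 1.01 and were all called. Ppard, a sister receptor, fell 1.72-fold. A core of the peroxisome proliferator element (AAAGGTCA) was in 0 of 24 windows of the called members of these lists and in 1.51% of all windows. So few windows cannot tell 0 matches from that share.

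Enzymes of cholesterol synthesis were mostly lower or not called. Of 17 measured, 8 were called lower, 1 higher and 8 did not pass, with a median log2 fold change of −0.50. Idi1, which makes the activated isoprene unit, had 8.82, 8.61, 8.89 and 8.38 in fasted mice, against 11.24, 11.36, 11.25, 11.51 and 11.25 in SDS mice, a 6.27-fold fall. Further down, Fdps, which joins these units, had 4.89, 5.02, 4.52 and 4.67 in fasted mice, against 6.16, 6.10, 6.30, 5.93 and 6.44 in SDS mice, a 2.66-fold fall. The groups were apart in both. The sterol demethylation enzymes Msmo1, Cyp51 and Nsdhl fell 3.04-fold, 2.84-fold and 1.80-fold, the decarboxylase Mvd 2.18-fold, the last enzyme Dhcr7 2.05-fold and the squalene oxidase Sqle 1.76-fold. Ebp, the sterol isomerase, was the exception, with 10.03, 10.30, 9.93 and 9.93 in fasted mice, against 9.47, 9.49, 9.43, 9.31 and 9.39 in SDS mice. It rose 1.54-fold, and its call was lost without fasted mouse 2 (log2 fold change 0.54). Srebf2, the gene of the sterol-sensing factor, had log2 fold changes of −0.41 and −0.43 in its 2 probe sets (adjusted p = 0.00883 and 0.00255), which are under the fold change minimum. The core of the sterol element (CACCCCAC) was in 0 of 8 windows of the called enzymes and in 2.87% of all windows. With 8 windows, 0 matches cannot be told from that share.

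Of 19 genes of fatty acid and triglyceride synthesis, 3 fell, 1 rose and 15 did not pass. Fasn, the fatty acid synthase, had 6.77, 6.49, 6.28 and 6.18 in fasted mice, against 7.28, 7.86, 7.61, 7.72 and 7.56 in SDS mice, and fell 2.26-fold. The desaturase Fads2 fell 1.89-fold. Acacb, the mitochondrial acetyl-CoA carboxylase, rose 1.94-fold, with 6.56, 6.23, 6.22 and 6.32 in fasted mice, against 5.13, 5.41, 5.54, 5.63 and 5.17 in SDS mice. Aacs, which feeds ketone bodies into lipid synthesis, fell 2.02-fold.

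Among genes of glucose and of amino acids, single steps passed both cut-offs, and other members passed the false discovery rate alone. Of 10 gluconeogenic genes, 3 were called higher and 7 did not pass, and with no fold change minimum 4 were higher and 1 lower. Fbp2, a fructose bisphosphatase, had 7.74, 8.02, 7.52 and 7.81 in fasted mice, against 6.41, 6.49, 6.99, 6.17 and 6.71 in SDS mice, and rose 2.33-fold. The mitochondrial Pck2, which makes phosphoenolpyruvate, rose 1.70-fold. The brightest probe set of its cytosolic counterpart Pck1 was near the floor of the array, at 3.57, 3.75, 3.84 and 4.08 in fasted mice, against 3.26, 3.22, 3.01, 3.15 and 3.13 in SDS mice. Its 1.57-fold call was lost without fasted mouse 4 (log2 fold change 0.56). Of the apical sugar carriers, Slc5a2, which reclaims most filtered glucose, fell 1.85-fold, while the mannose and fructose carrier Slc5a10 rose 2.20-fold and the fructose carrier Slc2a5 1.71-fold.

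Slc38a3, which brings glutamine into the proximal tubule for ammonia production, had 8.47, 8.59, 8.20 and 8.57 in fasted mice, against 6.21, 5.81, 5.92, 6.29 and 5.77 in SDS mice. The gap was wide, a 5.49-fold rise (adjusted p = 4.25e-07). Glud1, the glutamate dehydrogenase that frees the second nitrogen, had 12.43, 12.58, 12.40 and 12.34 in fasted mice, against 11.40, 11.31, 11.27, 11.30 and 11.28 in SDS mice, and rose 2.18-fold from an already bright signal. These were the 2 called of 11 genes of the list, and 0 were called lower. With no fold change minimum, 3 were higher and 3 lower. Arg2, the mitochondrial arginase, had 7.95, 8.27, 8.20 and 8.22 in fasted mice, against 6.10, 5.80, 5.51, 6.38 and 6.12 in SDS mice, and rose 4.53-fold. Ass1, which makes argininosuccinate, fell 1.87-fold. Odc1, the entry enzyme of polyamine synthesis, had 7.79, 7.50, 7.79 and 7.42 in fasted mice, against 9.60, 9.91, 9.81, 9.83 and 9.52 in SDS mice, and fell 4.31-fold. Of 29 genes for the breakdown of other amino acids, 5 rose and 2 fell, and with no fold change minimum 9 were higher and 6 lower. Those that rose included the glycine decarboxylase Gldc (2.17-fold), Hpd of tyrosine breakdown (2.06-fold) and Ftcd of histidine breakdown (1.64-fold). The falls were those of Aadat of lysine breakdown (2.48-fold) and of the D-amino acid oxidase Dao (1.80-fold). Of 18 genes of branched-chain amino acid breakdown, only Bcat1 was called (1 other rose without SDS mouse 5 or fasted mouse 4).

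Targets of ATF4 rose in part. Of 24 measured, 8 were called higher, 0 lower and 16 did not pass, with a median log2 fold change of 0.32. On leaving out single arrays, 6 to 8 were called higher. Asns, which makes asparagine, had 7.02, 7.07, 6.82 and 7.24 in fasted mice, against 5.64, 6.16, 6.03, 5.56 and 5.73 in SDS mice, and rose 2.32-fold. The transcription factor Atf5 rose 2.29-fold, the glutathione-degrading Chac1 2.09-fold, and the pseudokinase Trib3 and the factor Cebpb 1.74-fold each. Eif4ebp1, which restrains cap-dependent translation, had 8.16, 7.81, 7.87 and 7.87 in fasted mice, against 6.69, 6.95, 6.78, 6.92 and 6.83 in SDS mice, and rose 2.13-fold. Eif2ak4, the kinase that senses uncharged transfer RNA, had a log2 fold change of 0.26 (adjusted p = 0.0396).

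Several chaperones and folding enzymes of the endoplasmic reticulum (ER) fell. Of 29 measured, 8 were called lower, 0 higher and 21 did not pass, with a median log2 fold change of −0.35. Creld2, an ER stress protein, had 7.26, 7.43, 7.70 and 7.43 in fasted mice, against 8.73, 8.50, 8.52, 8.09 and 8.42 in SDS mice, and fell 2.00-fold. Pdia6, a disulfide isomerase, had 9.15, 9.19, 9.32 and 9.15 in fasted mice, against 10.07, 10.05, 10.17, 9.59 and 10.06 in SDS mice, and fell 1.73-fold. Hspa5, the main ER chaperone BiP, had 10.99, 11.01, 11.13 and 11.06 in fasted mice, against 11.81, 11.64, 11.75, 11.55 and 11.47 in SDS mice, and fell 1.51-fold. In all 3 genes each fasted mouse lay below each SDS mouse. The others were Sdf2l1 (2.31-fold), the co-chaperone Dnajb11 (1.81-fold), Derl2 of ER-associated degradation (1.74-fold), the secreted factor Manf (1.70-fold) and the translocon subunit Sec61b (1.53-fold). The calls nearest to the fold change minimum were lost on leaving out single arrays, that of Hspa5 without SDS mouse 1 or 3 or fasted mouse 1 or 2 (log2 fold changes −0.56, −0.57, −0.58 and −0.58) and that of Sec61b without fasted mouse 4 (−0.55). The large chaperones Hsp90b1 and Calr had log2 fold changes of −0.53 and −0.50 (adjusted p = 9.42e-05 and 0.00199), under the fold change minimum.

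Creld2, Pdia6 and Hspa5 share a sequence that the comparison did not use. The ER stress element, in which CCAAT and CCACG stand 9 bases apart on either strand, was in 39 of 32851 windows of RefSeq (0.119%) and in 3 of 8 windows (37.5%) of the called members of the ER list, which had a window for 7 genes. Members of the list that were not called held it as often, in 7 of 17 windows (41.2%), among them those of Hsp90b1 and Calr, so the element did not set the called members apart from the rest of the list. The 250 bases before the start of each of these 3 genes are printed as examples of it, a choice made after the matches had been seen. The element is in capitals, and the stretches are chr15:88819396-88819645 for Creld2, chr12:17266339-17266588 for Pdia6 and chr2:34771840-34772089 for Hspa5, all on the plus strand of GRCm38.p6:
Creld2: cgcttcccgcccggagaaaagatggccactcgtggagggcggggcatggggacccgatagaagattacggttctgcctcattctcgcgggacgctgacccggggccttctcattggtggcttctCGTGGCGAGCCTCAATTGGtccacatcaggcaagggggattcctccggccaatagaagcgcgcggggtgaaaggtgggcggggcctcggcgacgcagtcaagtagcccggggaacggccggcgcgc
Pdia6: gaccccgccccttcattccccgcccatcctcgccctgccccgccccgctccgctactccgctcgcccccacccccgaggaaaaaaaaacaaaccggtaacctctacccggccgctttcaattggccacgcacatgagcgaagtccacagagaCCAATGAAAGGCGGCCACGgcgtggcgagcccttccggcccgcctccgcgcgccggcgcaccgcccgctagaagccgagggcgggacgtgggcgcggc
Hspa5: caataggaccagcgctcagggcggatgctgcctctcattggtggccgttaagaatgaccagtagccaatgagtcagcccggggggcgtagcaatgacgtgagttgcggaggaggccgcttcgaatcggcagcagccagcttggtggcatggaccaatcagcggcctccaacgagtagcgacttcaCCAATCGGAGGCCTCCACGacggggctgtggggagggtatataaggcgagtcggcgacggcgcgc
The element starts 126 bases before the gene start in Creld2, 98 in Pdia6 and 65 in Hspa5. Of 20 measured genes with this element, 4 were called lower (the 3 above and Spats2l, 2.69-fold) and 1 higher (Acacb), beside 3.49% lower and 3.05% higher over 13514 measured genes with a window, and the median log2 fold change of the 20 was −0.06. The letters alone show no binding and no cause of the falls.

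Several cytosolic heat shock chaperones fell as well. Of 18 measured, 7 were called lower, 0 higher and 11 did not pass, with a median of −0.38. Leaving out single arrays gave 5 to 7 lower. Dnaja1, a co-chaperone of the cytosol, had 10.32, 10.46, 10.54 and 10.18 in fasted mice, against 11.63, 11.27, 11.29, 11.33 and 11.40 in SDS mice, and fell 2.02-fold. Chordc1, a partner of HSP90, fell 1.95-fold, the inducible chaperone Hsp90aa1 1.61-fold and the linker Stip1 1.56-fold. The cold-inducible Cirbp moved strongly the other way, with 8.87, 9.15, 8.50 and 8.88 in fasted mice, against 6.60, 7.06, 6.80, 7.02 and 7.39 in SDS mice, a 3.67-fold rise. Rbm3, the other well-known cold-inducible RNA-binding protein, split the fasted mice, with 4.43, 4.35, 7.02 and 6.32, against 6.37, 6.58, 6.74, 6.45 and 6.60 in SDS mice. Fasted mice 1 and 2 were far below the SDS range and fasted mice 3 and 4 near or above it, and Rbm3 was not called (log2 fold change −1.02, adjusted p = 0.172). Without fasted mouse 3 it was called lower (−1.52, adjusted p = 0.0179).

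**Figure D3:**
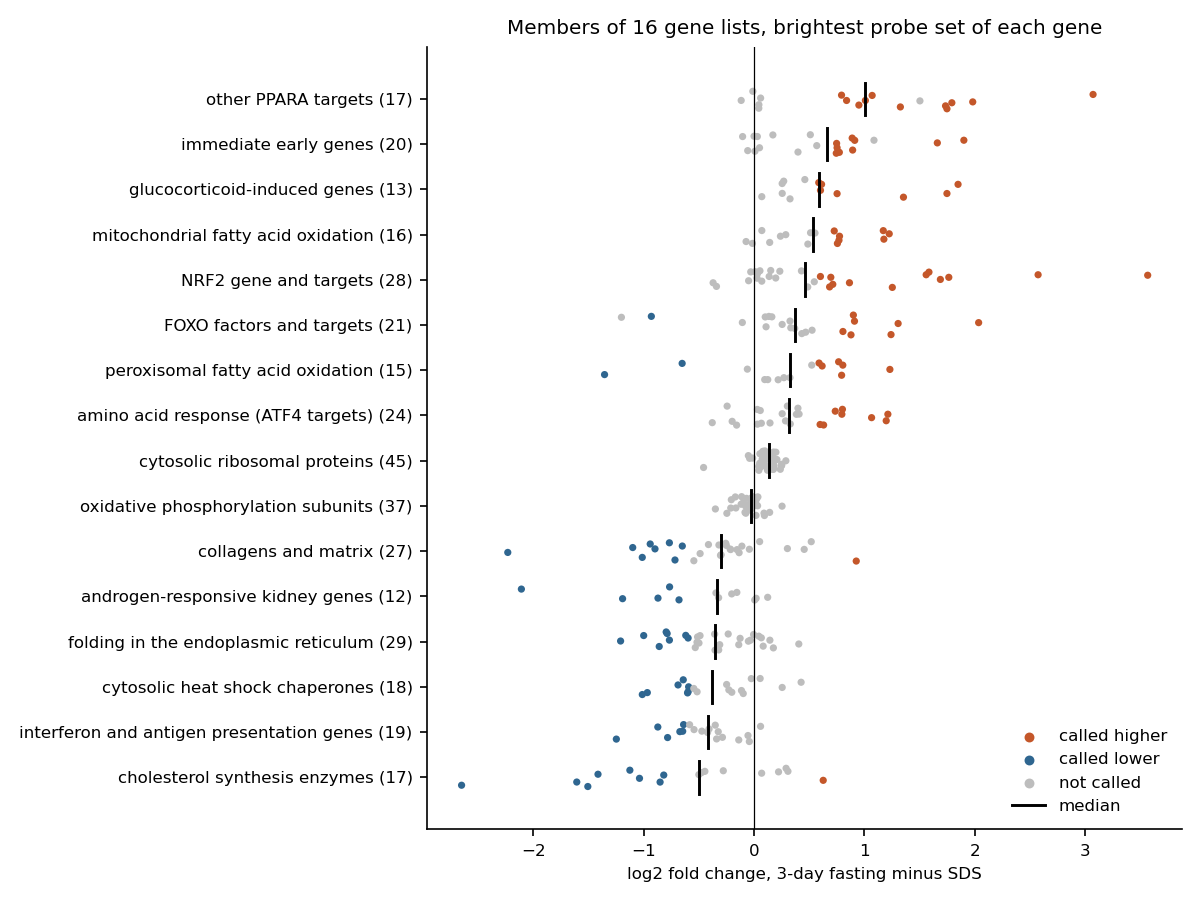
Log2 fold change (3-day fasting minus SDS, x axis) of the members of 16 gene lists, 1 point per gene at its brightest probe set, with list sizes in parentheses; orange is called higher, blue called lower, grey not called, and the black bar is the median of the list. The medians run from 1.01 for the other PPARA targets to −0.50 for the cholesterol synthesis enzymes.

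FOXO factors and their targets were called in 8 of 21 cases, 7 higher and 1 lower (2 lower without SDS mouse 1), with a median log2 fold change of 0.37. Igfbp1, which binds insulin-like growth factors and is held down by insulin, had 9.41, 9.42, 8.47 and 9.29 in fasted mice, against 7.37, 6.02, 6.94, 7.39 and 7.84 in SDS mice, and rose 4.10-fold. The cell cycle inhibitor Cdkn1a had 6.27, 5.93, 6.00 and 6.71 in fasted mice, against 5.00, 5.24, 5.00, 4.92 and 4.78 in SDS mice, and rose 2.36-fold. The groups were apart in both genes. Depp1 rose 2.47-fold, the stress genes Gadd45a and Gadd45b 1.88-fold and 1.87-fold, the insulin receptor Insr 1.84-fold and the mitophagy receptor Bnip3 1.75-fold. Trim63, a ubiquitin ligase known from wasting muscle, fell 1.90-fold. The FOXO element (GTAAACA) was in 0 of 7 windows of the members called higher, in 2 of 15 windows (13.3%) of those not called and in 3.65% of all windows. These windows are too few to tell the shares apart. Foxo3 itself had 9.59, 9.75, 9.48 and 9.94 in fasted mice, against 8.95, 9.29, 9.18, 9.22 and 9.19 in SDS mice. Although the groups were apart, its log2 fold changes of 0.53 and 0.58 (adjusted p = 0.00284 and 0.000532) fell just short of 1.5-fold in 2 probe sets, and another, dimmer one was at −0.09. The first was called without fasted mouse 3 (0.60), and the second without SDS mouse 3 (0.62), fasted mouse 1 (0.62) or fasted mouse 3 (0.63). The probe set of Foxo1 was near the floor, with a log2 fold change of 0.11. Mtor, the kinase of growth signalling, had 9.17, 9.42, 9.41 and 9.27 in fasted mice, against 9.67, 10.10, 9.77, 9.96 and 9.90 in SDS mice. Its −0.56 (adjusted p = 0.00121) missed the fold change minimum and passed it without SDS mouse 1 or 3 or fasted mouse 2 or 3 (−0.62, −0.59, −0.60 and −0.59), and its other probe sets were at −0.17 and −0.08.

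Of 13 glucocorticoid-induced genes, 7 were called higher and 6 did not pass, with a median of 0.59. The count was 4 without fasted mouse 4 or without SDS mouse 4. Per1, a clock gene that glucocorticoids induce, had 6.94, 7.50, 7.33 and 7.97 in fasted mice, against 5.52, 5.87, 5.52, 5.79 and 5.23 in SDS mice, and rose 3.60-fold. Cebpd, a factor of the acute phase, rose 2.56-fold. Fkbp5, a co-chaperone of the glucocorticoid receptor, had 8.72, 8.91, 8.80 and 8.45 in fasted mice, against 8.40, 8.70, 8.09, 7.74 and 7.75 in SDS mice, and the groups overlapped (log2 fold change 0.59, adjusted p = 0.0462). Its call was lost without SDS mouse 3, 4 or 5 or fasted mouse 1, 2 or 3 (log2 fold changes 0.49 to 0.59, adjusted p 0.0841 to 0.12). Among 18 clock genes, 3 rose and 1 fell. Next to Per1, the output factor Dbp rose 2.38-fold and Ciart 1.74-fold, while Bhlhe40 fell 2.06-fold. The E-box (CACGTG), which the clock factors bind, was in 2 of 4 windows of the called members (Per1 and Ciart, of 3 genes with a window), in 4 of 17 windows (23.5%) of the members not called and in 7.15% of all windows.

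Immediate early genes, which answer stimuli within minutes, were called higher in 9 of 20 cases and lower in 0, with a median of 0.66. The fasted mice differed widely among themselves. Egr1 had 7.12, 8.47, 8.74 and 9.73 in fasted mice, against 6.20, 5.50, 6.51, 6.86 and 8.02 in SDS mice, and Fos had 4.22, 5.60, 5.88 and 7.47 in fasted mice, against 3.87, 3.78, 4.04, 3.79 and 5.18 in SDS mice. Fasted mouse 4 was the highest and fasted mouse 1 the lowest of its group in both, SDS mouse 5 was the highest of the SDS group, and the groups overlapped. Their log2 fold changes of 1.90 (adjusted p = 0.0254) and 1.66 (adjusted p = 0.0441) were no longer called without fasted mouse 4 (adjusted p = 0.0754 and 0.0925), nor without SDS mice 1, 2 or 3 or fasted mice 2 or 3, and Fos was also lost without SDS mouse 4. Nr4a1 had 4.28, 4.82, 6.54 and 7.16 in fasted mice, against 4.50, 4.38, 4.65, 4.77 and 4.77 in SDS mice, and was not called, but was without fasted mouse 1 (1.56, adjusted p = 0.0206). Without fasted mouse 4 the list had 6 called members. Jun, with 8.03, 7.66, 7.65 and 8.18 in fasted mice, against 6.82, 6.90, 6.90, 7.07 and 7.26 in SDS mice, had groups that were apart and rose 1.85-fold.

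The inhibitors of differentiation Id1 and Id3, targets of BMP signals, rose together. Id1 had 10.03, 10.08, 9.94 and 9.81 in fasted mice, against 8.24, 8.21, 8.33, 7.89 and 8.06 in SDS mice, and Id3 had 9.88, 9.87, 9.59 and 9.49 in fasted mice, against 8.34, 8.40, 8.48, 8.33 and 8.32 in SDS mice. Both were apart by more than 1 log2 unit, with rises of 3.52-fold and 2.52-fold. Fst, which traps activins, fell 1.92-fold. Of 18 measured BMP, activin and Id genes, 3 were called higher, 1 lower and 14 did not pass, with a median log2 fold change of 0.10. The count of higher members was 2 to 5 on leaving out single arrays.

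Transport genes of the tubule moved in both directions. Of 24 organic ion and multidrug transporters, 5 rose and 4 fell. The rises were led by the pumps Abcc4 and Abcb1b, and the falls by Slc22a7, Slco1a6 (1.95-fold) and Slc22a19 (1.72-fold). Abcb1b had 6.76, 6.76, 6.69 and 6.83 in fasted mice, against 4.88, 4.94, 5.20, 5.22 and 5.12 in SDS mice, and rose 3.22-fold. Of 17 genes of vitamin D, phosphate and calcium handling, 4 fell, 1 rose (2 without SDS mouse 1) and 12 did not pass, with a median log2 fold change of 0.11 and 10 members above 0. Slc34a3, a phosphate carrier of the brush border, had 6.33, 6.57, 6.16 and 5.81 in fasted mice, against 8.18, 7.94, 8.27, 7.49 and 8.13 in SDS mice, and fell 3.44-fold. Slc20a1, a phosphate carrier of most cells, rose 1.98-fold. The klotho gene Kl, the co-receptor for the phosphate hormone FGF23, had 10.28, 10.37, 10.25 and 10.25 in fasted mice, against 11.07, 11.21, 11.22, 10.93 and 11.11 in SDS mice, and fell 1.77-fold. The other called members were 2 calcium genes of the distal tubule. The exchanger Slc8a1 had 7.31, 8.03, 7.28 and 7.60 in fasted mice, against 9.22, 9.30, 9.43, 9.37 and 9.29 in SDS mice, a 3.41-fold fall, and the calcium-binding Calb1 fell 1.92-fold. Calb1 and Pvalb (2.01-fold lower) were the called 2 of 5 markers of the distal convoluted tubule. The other 3, Slc12a3, Trpm6 and Wnk4, were not called and lay above 0 (log2 fold changes 0.09, 0.25 and 0.09). The median of the 5 was 0.09. The carbonic anhydrase Car4, which serves bicarbonate recovery, fell 2.74-fold. Agt, the precursor of angiotensin, rose 2.64-fold, the only one of 10 renin-angiotensin genes called.

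The mouse kidney is a target of androgens. Of 12 androgen-responsive genes measured, 5 were called lower, 0 higher and 7 did not pass, with a median of −0.33. Beside Odc1 these were Gusb, a classical androgen-induced kidney enzyme, with 6.64, 6.97, 6.68 and 6.88 in fasted mice, against 7.75, 7.87, 8.01, 8.12 and 8.17 in SDS mice (2.28-fold lower), Acsm3 (1.83-fold lower), the sterol hydroxylase Cyp7b1 (1.70-fold lower) and the transporter Slco1a1. The last was not called without fasted mouse 2 (log2 fold change −0.58). The steroid-converting reductase Akr1c18 fell 3.84-fold, with 7.26, 8.32, 7.52 and 7.23 in fasted mice, against 9.50, 9.42, 9.24, 10.05 and 9.42 in SDS mice.

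Among genes of the matrix and of immune cells, far more fell than rose. Of 27 collagen and matrix genes, 8 fell, 1 rose and 18 did not pass, with a median of −0.30. Col3a1, a collagen of the interstitium, had 7.06, 6.65, 7.01 and 6.79 in fasted mice, against 8.79, 9.30, 8.91, 9.39 and 9.13 in SDS mice, and fell 4.69-fold. The fibronectin gene Fn1 fell 2.14-fold, Col5a2 2.02-fold and the collagen chaperone Serpinh1 1.92-fold. Lox, which cross-links collagen, was the one that rose (1.90-fold). Endothelial markers were called by limma in 0 of 10 cases, with a median of 0.00 and an unadjusted p under 0.05 in 4.

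Of 18 markers of macrophages and other leukocytes, 8 were called lower, 0 higher and 10 did not pass, with a median of −0.48. The mean signal of the 18 lay between 5.45 and 5.58 in the fasted mice and between 5.84 and 6.19 in the SDS mice. The complement gene C1qb had 5.41, 5.44, 5.83 and 5.75 in fasted mice, against 6.42, 6.43, 6.18, 6.71 and 6.89 in SDS mice, and the leukocyte phosphatase Ptprc had 7.68, 7.34, 7.60 and 7.55 in fasted mice, against 8.41, 8.19, 8.01, 8.31 and 8.69 in SDS mice. Neither gene overlapped between the groups, and Adgre1, a surface antigen of macrophages, fell 1.70-fold. Of 19 interferon and antigen presentation genes, 6 fell and 0 rose, with a median of −0.42, among them Gbp2 (2.37-fold), Gbp3 (1.83-fold) and the immunoproteasome subunits Psmb8 and Psmb9 (1.72-fold and 1.59-fold). Cxcl9, a chemokine that interferon-gamma induces, had 5.06, 4.43, 4.54 and 4.35 in fasted mice, against 6.69, 6.59, 6.01, 7.30 and 7.31 in SDS mice. SDS mice 4 and 5 were the highest for Cxcl9, Gbp2 and Psmb8 alike. Cells of the blood that remain in the organ carry such transcripts, and the part of cell number in these falls was not tested. Of 3 erythroid genes measured, Alas2 (2.01-fold) and the globin Hba-a1 (1.69-fold) fell.

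Adipocyte genes split the fasted mice. The mean signal of 5 adipocyte markers lay between 4.97 and 7.25 in the fasted mice and between 5.55 and 6.08 in the SDS mice. Adipoq, the adiponectin gene, had 9.59, 8.33, 9.24 and 3.99 in fasted mice, against 6.29, 6.97, 5.61, 6.65 and 6.97 in SDS mice. Fasted mice 1, 2 and 3 were above every SDS mouse and fasted mouse 4 below every one, and Adipoq was not called (log2 fold change 1.29, adjusted p = 0.41). Without fasted mouse 4 it was called (2.55, adjusted p = 0.000636). Of the genes of brown fat, Cidea and Cox8b were high in fasted mice 1, 2 and 3 and within the SDS range in fasted mouse 4. Cidea had 8.56, 6.51, 6.71 and 3.25 in fasted mice, against 2.84, 3.91, 3.42, 3.65 and 3.27 in SDS mice (2.84, adjusted p = 0.0245), and Cox8b had 7.30, 5.93, 6.65 and 3.76 in fasted mice, against 3.61, 4.64, 3.87, 4.55 and 4.03 in SDS mice (1.77, adjusted p = 0.0464). Both calls were lost without SDS mouse 1, 3 or 5 or fasted mouse 1, 2 or 3, with adjusted p of 0.0505 to 0.0647 for Cidea (log2 fold changes 2.07 to 2.84) and 0.0879 to 0.127 for Cox8b (1.30 to 1.76), and Cox8b was also lost without SDS mouse 2 or 4 (1.89 and 1.87). Ucp1, the uncoupling protein that defines brown fat, had 4.93, 3.86, 5.65 and 3.82 in fasted mice, against 3.63, 3.86, 3.43, 3.71 and 3.78 in SDS mice, and was not called (log2 fold change 0.88, adjusted p = 0.0748). Without fasted mouse 2 or 4 it was called (1.12 and 1.13, adjusted p = 0.0339 and 0.0284). Cidea, Cox8b and Ucp1 were chosen after their values had been seen. In fasted mouse 4, where fat markers were lowest, Pdk4, Angptl4 and Acot1 had the highest signals of the group. Plin5 was highest in fasted mouse 1, Acaa2 and Acot3 in fasted mouse 2 and Decr1 in fasted mouse 3. The part of fat in these values was not tested. With the mean of the 5 markers added to the model, an alternative chosen after their levels had been seen, 2659 probe sets were DEPS, among them 2245 (93.6%) of the 2398 with the same direction.

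**Figure D4:**
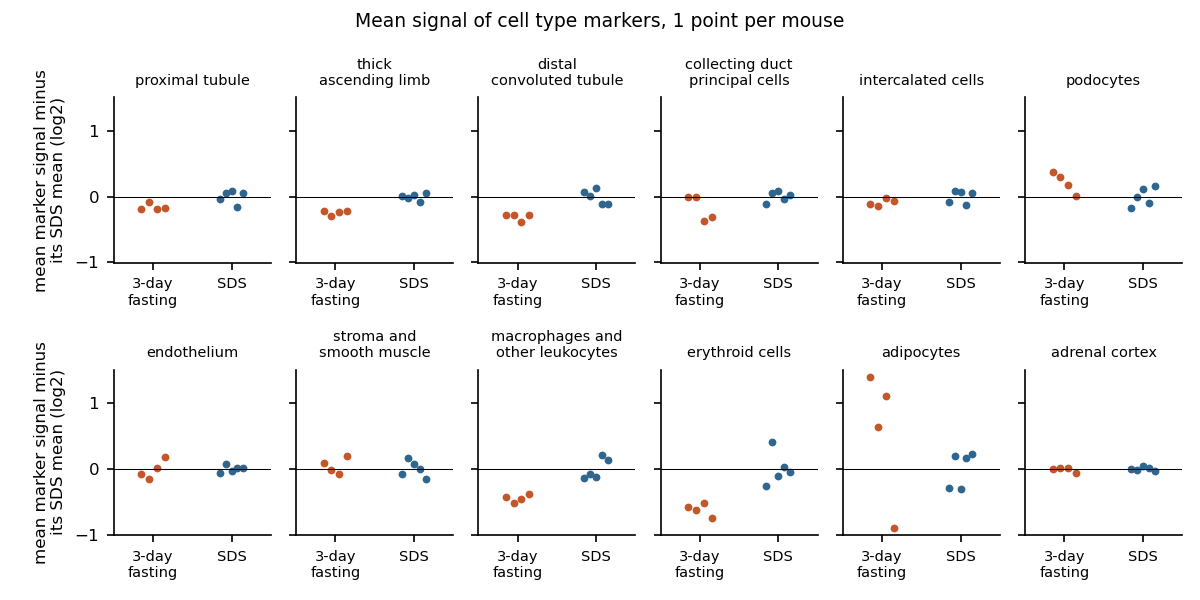
Mean log2 signal of the markers of 12 cell types in each mouse, minus the mean of the SDS group (y axis), with 1 point per mouse, 3-day fasting (orange, n = 4) left of SDS (blue, n = 5). The fasted mice lie wholly below the SDS mice for leukocytes and erythroid cells, among others, and spread over more than 2 log2 units for adipocytes, with fasted mouse 4 the lowest.

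Of the large cell machines, few genes passed both cut-offs. Of 37 subunits of oxidative phosphorylation, limma called 0 (8 at an unadjusted p under 0.05), with log2 fold changes between −0.35 and 0.25 and a median of −0.03, and of 16 genes of the tricarboxylic acid cycle it called 0 (5 at an unadjusted p under 0.05), with a median of −0.02. Of 45 cytosolic ribosomal proteins, 0 were called and 26 had an unadjusted p under 0.05. Of these 45 genes, 41 were above 0, and the median was 0.14, beside −0.01 over all genes. Their mean signal lay between 11.9 and 12.0 in the fasted mice and between 11.8 and 11.9 in the SDS mice, each fasted mouse above each SDS mouse. Of 36 proteasome genes, only the 3 immunoproteasome subunits Psmb8, Psmb9 and Psmb10 (1.59-fold) fell. Of 14 genes of sirtuins, NAD and mitochondrial biogenesis, 0 were called and 10 had an unadjusted p under 0.05. Of 28 genes of autophagy and the lysosome, Bnip3 rose, the kinase Ulk2 fell (1.74-fold) and 26 did not pass, while the probe sets of lowest p gave 3 higher and 2 lower. At an adjusted p under 0.05 with no fold change minimum, 8850 of the 45141 probe sets passed. By that rule 13 ribosomal protein genes were higher and 1 lower, and 6 genes of the sirtuin list were higher and 3 lower. Oxidative phosphorylation had 1 higher and 4 lower, and the tricarboxylic acid cycle 1 higher and 3 lower. The proteasome had 1 higher and 5 lower, and autophagy and the lysosome 5 higher and 3 lower.

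Genes of the cell cycle gave no common direction. Of 38 measured, 3 fell, 1 rose and 34 did not pass, with a median of −0.03. The one that rose, Rrm2, was not called without fasted mouse 4 or SDS mouse 3 (log2 fold changes 0.49 and 0.72). Next to Kif20b, the cytokinesis regulator Ect2 (2.01-fold) and the replication helicase subunit Mcm6 (1.96-fold) fell. Mki67, the usual marker of dividing cells, had 3.93, 3.87, 4.44 and 5.07 in fasted mice, against 4.45, 4.93, 4.22, 4.59 and 5.19 in SDS mice. The groups overlapped, and Mki67 was not called (log2 fold change −0.35, adjusted p = 0.412). The second probe set of Kif20b was at −0.21. The histone genes H3c15 and H3c14 fell 7.05-fold and 5.05-fold, and since their sequences are nearly identical the array may not tell them apart. H3c15 had 3.65, 3.31, 3.88 and 3.90 in fasted mice, against 6.39, 6.76, 6.65, 6.59 and 6.13 in SDS mice. H4c8 fell 2.20-fold and 9 of the 12 histone genes measured did not pass.

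A pair of fibrinogen chains, known from the acute phase in liver and from injured tubules, rose. Fgg had 9.60, 9.83, 9.61 and 10.00 in fasted mice, against 7.22, 7.11, 7.58, 6.73 and 7.61 in SDS mice, and Fga had 8.82, 9.54, 8.89 and 9.34 in fasted mice, against 6.84, 7.54, 7.29, 6.75 and 6.89 in SDS mice. Both were apart, with rises of 5.69-fold and 4.25-fold. The third chain, Fgb, had 6.69, 4.63, 4.47 and 3.90 in fasted mice, against 4.81, 3.85, 5.61, 4.58 and 4.92 in SDS mice, and did not pass (adjusted p = 0.876). The acute phase gene Cp rose 3.12-fold and Krt18 by 0.90 on the log2 scale, whereas the injury marker Havcr1 fell 1.81-fold and Clu 1.72-fold. Of 19 measured fibrinogen and tubular injury genes, 4 were called higher, 2 lower and 13 did not pass, with a median log2 fold change of 0.17. Serpina1a, an antitrypsin gene, rose 2.61-fold and the carrier Ttr fell 2.05-fold. Both are in a list of 5 liver markers, whose mean signal lay between 7.91 and 9.31 in the fasted mice and between 7.50 and 8.73 in the SDS mice. Alb, the albumin gene, had 9.94, 8.58, 8.81 and 7.61 in fasted mice, against 8.58, 6.72, 9.50, 8.43 and 9.34 in SDS mice, and was not called (log2 fold change 0.22, adjusted p = 0.853). Fasted mouse 1 was the highest and fasted mouse 4 the lowest of its group for Alb and for Fgb, and SDS mouse 3 the highest and SDS mouse 2 the lowest of its group for both. Fgg and Fga did not have this order, and the part of liver RNA in these values was not tested.

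Probe sets of 1 gene often disagreed. Of 7180 genes with several probe sets, 764 had at least 1 DEPS, and in 129 of these all probe sets were called in 1 direction. In 275 genes the brightest probe set was not called while another was, with the opposite sign in 60 and the same sign in 215. Vti1b was at −0.21 for its brightest probe set and 2.07 for another, Gigyf2 at −0.07 and −1.97, Pes1 at 0.41 and −1.23, and Brix1 at 0.51 and −0.97. The 5 genes with DEPS in both directions were Airn, Bcl7c, Ccny, Cyhr1 and Dido1. Airn, a long non-coding RNA of an imprinted region, had 1 probe set with 4.82, 4.83, 4.07 and 4.16 in fasted mice, against 3.60, 3.36, 3.52, 3.60 and 3.70 in SDS mice, and another with 6.13, 6.28, 5.79 and 6.19 in fasted mice, against 6.71, 7.09, 7.20, 7.41 and 7.82 in SDS mice. The groups were apart in both, in opposite directions. Of the 10 DEPS behind these 5 genes, 5 lost their call on leaving out some array, namely 1 of Bcl7c (−0.56 without SDS mouse 1), Ccny (0.58 without SDS mouse 4) and Cyhr1 (0.53 to 0.58 without SDS mouse 1 or fasted mouse 2 or 4), and both of Dido1 (0.52 to 0.56 without SDS mouse 2 or 3 or fasted mouse 2 or 4, and −0.53 to −0.58 without SDS mouse 4 or fasted mouse 1 or 2).

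**Figure D5:**
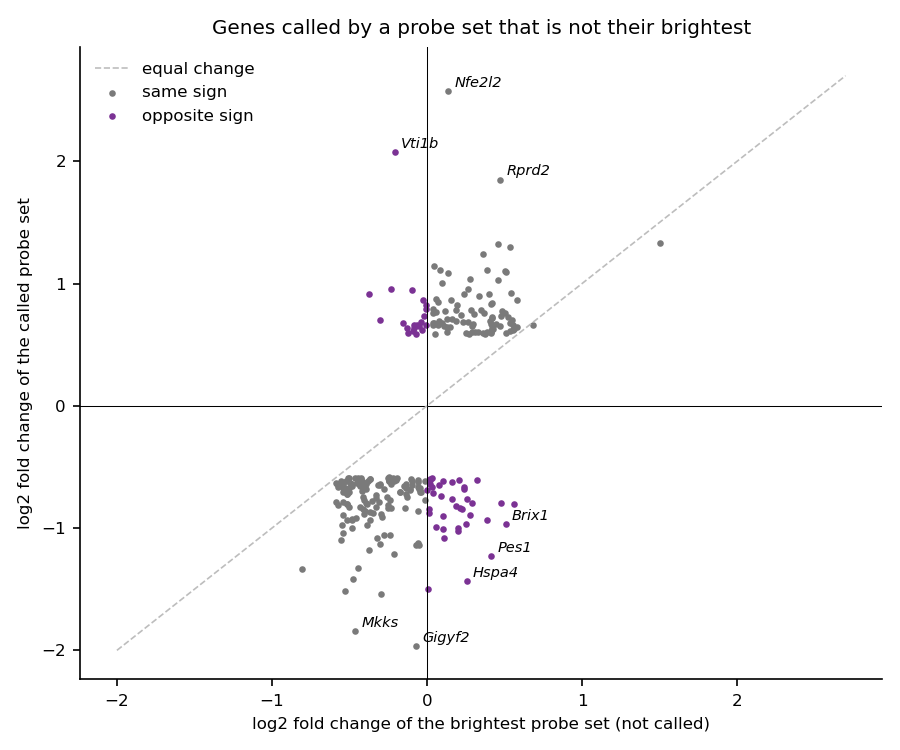
Genes whose brightest probe set was not called but another was: log2 fold change (3-day fasting minus SDS) of the brightest probe set on the x axis and of the called probe set on the y axis, 1 point per gene. Grey points have the same sign in both (215 genes), purple points opposite signs (60 genes), and the dashed line marks equal change; Nfe2l2 is at 0.14 and 2.57.

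Some changed genes lay side by side. Of 16912 neighbouring pairs among 16934 genes placed in genome order, 101 had both genes called, 73 of them in the same direction, 35 higher and 38 lower. Over all genes, 6.47% were called, 2.94% higher and 3.53% lower, so some such pairs are due to chance alone. Whether the pairs were more than chance gives was not tested. There were 10 runs of at least 3 neighbours changed alike. Of these, 4 were families of close paralogs, in which cross-hybridisation cannot be told apart from shared change: Acot2, Acot1 and Acot3 and a run of 4 Serpina1 genes (0.76 to 1.38), both on chromosome 12, Akr1c13, Akr1c19 and Akr1c12 on chromosome 13 (1.13, 0.90 and 1.24), and Ugt2b5, Ugt2b37 and Ugt2a3 on chromosome 5 (−1.18, −1.68 and −0.86). In the other 6 runs the genes were distinct, although some are related in function. They were C1qb, C1qc and C1qa on chromosome 4 (C1qa was not called without fasted mouse 2, at −0.57), Plin4, Plin5 and Lrg1 on chromosome 17 (0.88, 1.98 and 1.13), Adamts1, Adamts5 and Gm32461 on chromosome 16 (−0.89, −0.98 and −0.64), Krt18, Eif4b and Tns2 on chromosome 15 (0.90, 0.68 and 1.03), Herc3, Nap1l5 and Fam13a on chromosome 6 (0.73, 0.67 and 0.65), and Csgalnact1, Ints10, Lpl and Slc18a1 on chromosome 8 (−0.74, −0.73, −0.72 and −1.30). Of the genes in these 6 runs, 3 more lost their call on leaving out single arrays. They were Adamts1 (−0.69 to −0.90, adjusted p 0.0516 to 0.0751, without SDS mouse 1, 2, 3 or 4 or fasted mouse 1 or 2), Gm32461 (−0.51 to −0.57, without SDS mouse 1 or 5 or fasted mouse 4) and Nap1l5 (0.50 to 0.65, adjusted p 0.08 to 0.103, without SDS mouse 2, 3 or 4 or fasted mouse 1 or 2). The neighbours Akr1c14 and Akr1c18, also on chromosome 13, fell (−0.71 and −1.94). The pairs of unrelated genes changed alike included C1qtnf3 and Amacr (−1.94 and −1.35) and B4galt5 and Slc9a8 (−1.75 and −2.68).

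The 4 fasted mice were alike in the size of their response. Over the DEPS that were higher, the median difference of a mouse from the SDS mean was 0.78, 0.82, 0.76 and 0.89 in fasted mice 1 to 4, and over those that were lower it was −0.80, −0.83, −0.78 and −0.86. A single fasted mouse inside the SDS range, with the other 3 outside, was seen in few DEPS, between 17 and 28 of those higher and between 7 and 31 of those lower for any mouse. These values describe the mice that made the calls and are no test of them.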

How the data were processed

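RNA of mouse kidney was hybridized to Affymetrix HT MG-430 PM arrays, with 1 array per mouse. The authors deposited log2 signals per probe set, made by RMA (which corrects the background, normalizes by quantiles and summarizes probes by median polish) in this cohort by itself, so that 27 columns of the other cohorts were not used. They had excluded outlying arrays, which are not analysed here. Groups were taken from the diet labels, and the cohort of the SDS mice from the animal numbers. Quantile normalization gives the arrays a common distribution of signals, so that a shift of all genes together would not be seen.

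The 3-day fasting and SDS groups were compared with limma 3.58.1 in R 4.3.3, with no covariate and the spread shared over all 9 arrays. Cut-offs were a false discovery rate under 5% (Benjamini-Hochberg) with a fold change of at least 1.5, as in the study. Of the probe sets, 28898 had 1 gene symbol (17097 genes), 551 had several and 15692 had none in the platform annotation. A gene in a list was represented by its brightest probe set. Named genes were the 15 highest and 15 lowest with separate groups, up to 6 called members of each list by size of change, genes with calls in both directions, and regulators that the study names. Uncalled members were named to show the other side of a list. Outside this rule, and after their values had been seen, further called members of some lists (such as Hspa5, Ebp, Fkbp5 and Ephx1), Cidea, Cox8b, Ucp1, Spats2l, genomic neighbours and genes with disagreeing probe sets were named. The gene lists and members were chosen with earlier results of these data known. Tested on simulated data of this comparison (45141 probe sets, 200 changed), the fit recovered 98% of 2-fold and 41% of 1.5-fold changes with 4 false calls. The simulated 1.5-fold changes lay exactly at the fold change minimum, so the cut-off alone removes many of them. Far fewer probe sets were changed than were called in the mice, so these values do not carry over to the calls. The number of arrays limits the precision. Alternatives were a trended and robust prior, further normalization, a signal filter, other fold change rules, array weights, RNA integrity and adipocyte markers as covariates, 1 probe set per gene, and leaving out each array. Promoter windows and gene positions are those of RefSeq for GRCm38.p6.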

Additional observations from a re-analysis of the deposited data

Results flagged for a closer look

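In each group the mouse farthest from the others was tested with Dixon's ratio of its gap to the range. Of 538 groups of values tested (both diets, probe sets of the named genes), 24 had a mouse far from the others. Chance alone gives about 1 in 20, and the flags were no more frequent than that.

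Of these, 11 were fasted mice. Fasted mouse 3 was the lowest for Igfbp1 (8.47, next 9.29), for Cbr3 (8.62, next 8.88) and for Slc5a10 (10.2, next 10.5), and the highest for Decr1 (11.9). Igfbp1 stayed above every SDS mouse in all 4 fasted mice. Fasted mouse 1 was the highest for Eif4ebp1 (8.16) and the lowest for Eif4b (10.9) and for the brighter probe set of Srebf2 (5.17). Fasted mouse 2 was the highest for Acaa2 (11.4) and for a probe set of Ppara (9.03, next 8.54). Fasted mouse 4 was the lowest for Derl2 (9.18) and for the dimmer probe set of Idi1 (7.66).

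The other 13 were SDS mice, and 9 of them were SDS mouse 1. It was the lowest for the squalene oxidase Sqle (8.85, next 9.11), for Ephx1 (7.60), Acsm3 (12.0), Spats2l (6.14) and Cpt1a (10.5). It was the highest for the chaperone genes Hsp90aa1 (11.4, next 11.0) and Chordc1 (9.33, next 9.04), and for Glud1 (11.4) and Nfe2l2 (9.59). Both chaperones fell after fasting, and without SDS mouse 1 both were still called. Hsph1 and Dnaja4 of the same list lost their call without it (log2 fold changes −0.53 and −0.58). SDS mouse 4 was the lowest for Pdia6 (9.59, next 10.1) and Gapdh (11.9). SDS mouse 5 was the highest for Fos (5.18, next 4.04) and for a dim probe set of Mtor (5.94).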

How the results depend on the processing

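The 2398 DEPS became 8850 with no fold change minimum (4542 higher, 4308 lower), 462 under limma's treat at 1.5-fold (223 higher, 239 lower) and 1109 with 1 probe set per gene (503 higher, 606 lower), where fewer features were tested. Leaving out each array in turn gave 2302 to 2585 DEPS, 1103 to 1342 of them higher and 1180 to 1266 lower, and shared 87.7 to 93.9% of the DEPS. The other alternatives gave 2282 to 2659. Subtracting array medians moved the share of higher calls to 44.2%, beside 49.5%. The difference of the groups (3-day fasting minus SDS) in the Gapdh 3′ minus 5′ signal lay between −0.02 and 0.14 on leaving out arrays, and the Actb probe sets gave 0.28 (exact permutation test, p = 0.0794).

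Of 273 called probe sets that the rule or the text names, 0 were reversed by these alternatives. Between 0 and 11 lost their call under the alternatives that kept all arrays, apart from treat (162 lost), and between 7 and 19 when an array was left out. The adipocyte covariate, chosen after seeing the data, lost 11. With the probe set of lowest p for each gene, fatty acid and triglyceride synthesis had 6 members lower in place of 3, autophagy and lysosome 3 higher and 2 lower in place of 1 each, oxidative phosphorylation 1 higher and 2 lower in place of 0, the tricarboxylic acid cycle and ribosomal proteins 1 higher each in place of 0, and the NRF2 list and antioxidant enzymes 1 lower each in place of 0. With this choice the insulin and growth factor axis had 4 members lower in place of 1. The ER list had 10 lower in place of 8, and the heat shock list 8 in place of 7. Further lists moved as well. The cause was not tested. No paired analysis was possible because the labels give the groups no shared replicate numbers. Low signal limits some calls: 135 DEPS (5.63%) had a mean signal below the median of 4.18.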

Other observations

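Genes linked to retinoids, drugs and amino acids changed beyond those described above. Of 23 genes of a list of retinoid and carbonyl enzymes and related genes, 7 were called higher and 3 lower. Rarres2, which encodes chemerin, had 10.22, 10.39, 10.16 and 9.94 in fasted mice, against 8.81, 9.08, 8.93, 8.74 and 8.91 in SDS mice, and rose 2.44-fold. Rdh10, which makes retinal from retinol, went the other way and fell 1.91-fold. Of 21 cytochromes P450 and flavin oxidases, 5 rose and 2 fell, with Cyp2j9 (2.15-fold higher) and the sterol hydroxylase Cyp27a1 (1.95-fold higher) next to Cyp2d22, and the flavin oxidase Fmo5 2.08-fold lower. Among 22 conjugating enzymes, 4 rose and 2 fell. Mgst1 had 12.17, 12.09, 12.08 and 12.07 in fasted mice, against 11.01, 10.61, 10.77, 10.76 and 10.85 in SDS mice, and the glucuronosyltransferase Ugt2b37 had 9.32, 8.66, 9.95 and 8.55 in fasted mice, against 10.78, 10.61, 10.53, 11.06 and 11.01 in SDS mice (3.21-fold lower). The groups were apart in both genes.

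Of 30 amino acid transporters, 3 rose and 3 fell, and without SDS mouse 4 only 1 rose. Slc7a13, a carrier of the proximal tubule, had 12.03, 11.67, 12.07 and 11.89 in fasted mice, against 12.72, 12.80, 12.86, 12.85 and 12.81 in SDS mice, and fell 1.85-fold. Slc7a7, which exports cationic amino acids, fell 2.07-fold and the proline carrier Slc6a20a rose 1.92-fold. Uros, an enzyme of haem synthesis, had 7.22, 7.63, 7.64 and 7.39 in fasted mice, against 8.60, 8.59, 8.75, 8.54 and 8.63 in SDS mice, and fell 2.22-fold. Bhmt, which remethylates homocysteine with betaine, had 8.91, 7.93, 7.63 and 7.18 in fasted mice, against 6.95, 5.40, 6.63, 5.66 and 5.50 in SDS mice, and rose 3.70-fold (adjusted p = 0.00491 from limma). As for Alb, fasted mouse 1 was the highest and fasted mouse 4 the lowest of the fasted mice for Bhmt. SDS mouse 2 was the lowest of the SDS mice for both genes, but the highest was SDS mouse 1 for Bhmt and SDS mouse 3 for Alb. For Bhmt each fasted mouse lay above each SDS mouse, whereas for Alb the groups overlapped. The part of liver RNA in the value of Bhmt was not tested.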
